A study of Mus musculus with 6 samples.

Results

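The genes described here are 10 genes of the cellular response to low oxygen. Hif1a encodes the oxygen-regulated subunit of hypoxia-inducible factor 1, and Vegfa, Adm, Bnip3, Egln3, Ndrg1, Ankrd37, P4ha1, Pdk1 and Pfkfb3 are known targets of this factor (HIF). They were taken by symbol from deposited tables of 17191 genes, and all 10 passed the low-count filter, which left 12721 genes for testing. Messenger RNA was sequenced from cells of subcutaneous CT26 tumours, a mouse colorectal cancer line, grown in female BALB/c mice aged 6 to 8 weeks after injection of 500000 cells. Treatment began at tumour volumes of 100 to 200 mm3 and lasted 3 weeks. The vehicle group has 3 libraries, and the TP-18 group has 3 libraries from mice given 50 mg/kg of TP-18, a compound known here by its code name, by mouth each day. Both groups carried the same tumour line, and the labels name no genetic change in line or host. The labels differ on the cells collected: CD11b+F4/80+CD206+ macrophages from flow sorting are given in the series design, CD11b+ cells from bead selection in the treatment protocol, and the tumour line among the characteristics. Separate mice are not stated for the libraries, so each p-value reflects how far these samples spread, which may be technical.

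HIF pairs an alpha subunit, such as the product of Hif1a, with the constant partner ARNT. With oxygen present, prolyl hydroxylases of the EGLN family mark the alpha subunit, and the VHL protein then directs it to degradation. When oxygen is short, the alpha subunit accumulates and HIF binds short elements near its targets. Much of this control acts on protein, so Hif1a mRNA is not itself a readout of HIF activity. In tumours, macrophages often gather in poorly perfused regions, where HIF targets include angiogenic factors and regulators of glycolysis.

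The core of the HIF binding element reads ACGTG or GCGTG. RefSeq promoter windows (GRCm38.p6) of 300 bases, 250 of them before an annotated RefSeq start, were searched for both on either strand, and CACGTG counts once per strand because its matches overlap. Windows were matched for 9 of the 10 members, Ndrg1 being the exception, with 12 windows in all. At least 1 match was found in 10 of the 12 windows, in 43.8% of all 32851 windows and in 60.6% of the 12941 windows of tested genes. At least 3 matches were found in 5 of the 12, in 8.93% of all windows and in 15.3% of those of tested genes. These counts cover whole windows, annotated exon sequence included. Vegfa had 0 matches in the window at its outer start and 2 in a window at a later start. In 1 Pfkfb3 window the only match, at -60, lay past the point where annotated exon sequence begins. The members' windows were also richer in G and C, with a median of 64% against 60.3% for tested genes. The sequence before the start, ending where annotated exon sequence begins, is printed for Ankrd37, Pdk1 and Hif1a, whose groups did not overlap, and for Bnip3, an abundant member with a wide range across libraries. Sequences run 5′ to 3′ along the gene, and capitals mark the matches in either direction.
Ankrd37: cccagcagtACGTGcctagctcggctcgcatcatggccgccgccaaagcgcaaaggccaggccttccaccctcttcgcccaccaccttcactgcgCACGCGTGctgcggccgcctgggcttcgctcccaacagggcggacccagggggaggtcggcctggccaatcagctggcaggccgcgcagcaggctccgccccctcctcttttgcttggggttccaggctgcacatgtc
Pdk1: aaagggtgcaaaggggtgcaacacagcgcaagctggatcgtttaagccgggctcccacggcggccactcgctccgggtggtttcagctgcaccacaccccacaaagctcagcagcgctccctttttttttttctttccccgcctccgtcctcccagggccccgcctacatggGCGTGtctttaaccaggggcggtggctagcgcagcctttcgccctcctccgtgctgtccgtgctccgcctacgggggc
Hif1a: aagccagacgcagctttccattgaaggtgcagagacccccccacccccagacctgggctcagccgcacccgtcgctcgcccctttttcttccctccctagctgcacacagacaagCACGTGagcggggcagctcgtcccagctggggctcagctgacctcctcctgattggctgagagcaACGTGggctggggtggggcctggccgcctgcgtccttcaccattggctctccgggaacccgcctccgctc
Bnip3: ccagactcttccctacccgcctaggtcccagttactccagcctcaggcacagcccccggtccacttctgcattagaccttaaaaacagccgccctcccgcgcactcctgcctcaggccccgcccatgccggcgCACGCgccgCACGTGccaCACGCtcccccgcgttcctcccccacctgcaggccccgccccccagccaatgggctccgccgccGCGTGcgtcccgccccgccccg
On GRCm38.p6 the Ankrd37 stretch is chr8:45999868-46000100 (minus strand), that of Pdk1 chr2:71872974-71873223 (plus), that of Hif1a chr12:73907617-73907866 (plus) and that of Bnip3 chr7:138909520-138909756 (minus). Bnip3 holds 5 matches between positions -117 and -35 from the start, Hif1a holds 3, and Ankrd37 holds 3 in the printed stretch, at -241, -155 and -152. Pdk1 holds 1 at -78, and a further match at -2 runs past the end of the printed stretch. Pdk1 has another window, at a later start, with 0 matches. The starts used for Hif1a and Ankrd37 lie inside the gene spans that GENCODE gives, so these stretches precede a downstream start and not the outermost one. A match describes letters in the window and shows no binding.

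Values per library are CPM, counts relative to the TMM-scaled library size, which compare a gene between libraries. FPKM values, also divided by gene length, compare levels between genes. Library totals ran from 16371128 to 17597645 counts. The markers named for the sort were present in every library, with Itgam (CD11b) at 803 to 1319 CPM, Mrc1 (CD206) at 630 to 1452 CPM and Adgre1 (F4/80) at 99.9 to 295 CPM. Marker genes of other cells were detected too, with the keratin gene Krt20 at 239 to 522 CPM and the collagen gene Col1a2 at 495 to 1119 CPM. The epithelial marker Epcam was at most 1.07 CPM. Krt20 made up most of the sum over 11 carcinoma and epithelial markers, which ran from 255 to 544 CPM. In such bulk samples fewer cells of a type and less RNA per cell cannot be told apart.

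The comparison asks whether these genes differed in cells from tumours of mice given TP-18. In every TP-18 library Ankrd37 and Pdk1 were above, and Hif1a below, every vehicle library, while Bnip3, Adm, Vegfa, Ndrg1, P4ha1 and Pfkfb3 overlapped between the groups, and Egln3 overlapped on CPM but not on FPKM. None of the 10 members passed the edgeR quasi-likelihood test (smallest adjusted p = 0.188), which called 14 of 12721 genes, or 0.110%. At an unadjusted p under 0.05 in edgeR, 3 members were higher (Egln3, Ankrd37 and Pdk1) and 1 was lower (Hif1a), against 7.56% of tested genes higher and 8.70% lower. Groups did not overlap with TP-18 above in 2 members and in 11.6% of tested genes, and with TP-18 below in 1 member and in 11.7% of tested genes. With DESeq2, 3 of the 10 passed: Hif1a (adjusted p = 0.0232), Ankrd37 (0.0317) and Pdk1 (0.0470), against 4.54% of the genes given an adjusted p. With limma-voom 0 passed. The members' median log2 fold change was 0.29, with 6 above 0 and 4 below, and that of all tested genes was 0.02. Without TP-18 2 the members' median was -0.22.

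**Figure D1:**
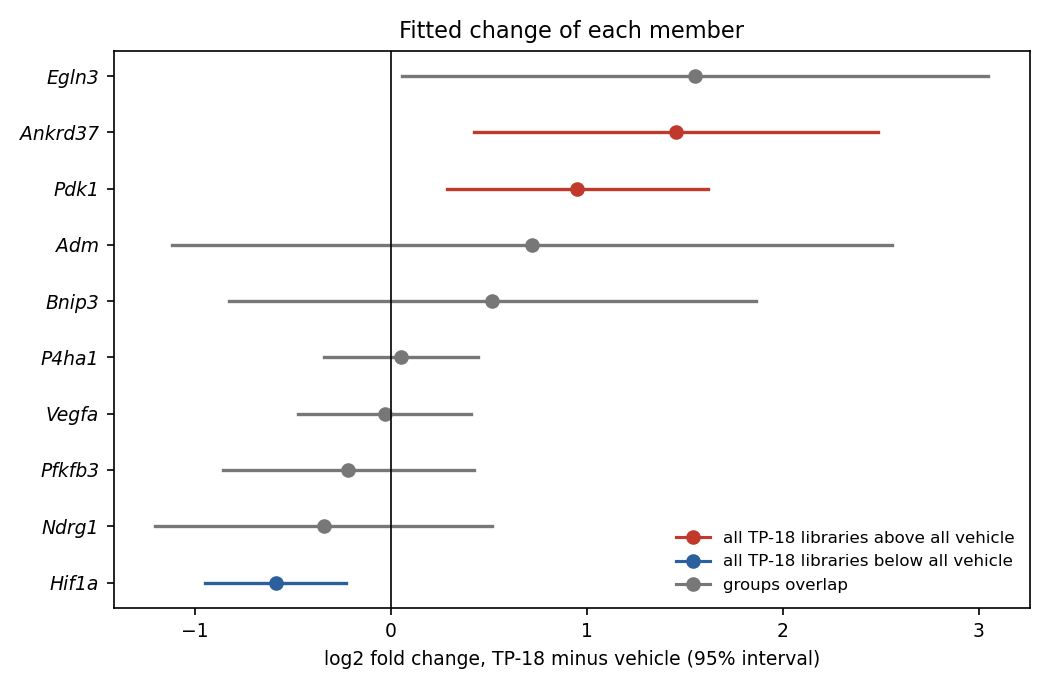
Log2 fold change of each member, TP-18 minus vehicle, with its 95% interval from edgeR. Red marks Ankrd37 and Pdk1, whose TP-18 libraries all lie above the vehicle libraries, blue marks Hif1a, whose TP-18 libraries all lie below, and grey marks groups that overlap.

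Hif1a (Entrez 15251, chromosome 12, 73901375 to 73947530 on GRCm38, plus strand) was at 208, 272 and 259 CPM in vehicle 1, 2 and 3 and at 149, 165 and 178 CPM in TP-18 1, 2 and 3. All TP-18 libraries lay below all vehicle libraries, on CPM and on the deposited FPKM values. Means were 246 ± 33.9 and 164 ± 14.8 CPM (SD, n = 3 each), and the log2 fold change was -0.59 ± 0.15 (SE; 95% interval -0.94 to -0.23; edgeR adjusted p = 0.188). With single libraries left out it ranged from -0.72 to -0.52. The decrease was smaller with library totals as scaling (-0.41) and on log2(FPKM + 1) (-0.39). TMM factors ran from 0.92 to 0.96 in vehicle and from 1.05 to 1.07 in TP-18 libraries. Exons of Hif1a share 5.6% of their bases with an antisense gene, Gm15283, and 2.5% with Gm49321 on the same strand. Strand use in counting is not given in the sources used here, so reads in the shared bases cannot be assigned.

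Egln3 (112407, chromosome 12, 54178981 to 54203860, minus strand) encodes a HIF prolyl hydroxylase that is itself induced by HIF. It was at 2.83, 11.5 and 3.11 CPM in vehicle 1, 2 and 3 and at 10.2, 30.01 and 10.98 CPM in TP-18 1, 2 and 3. Vehicle 2 lay just above TP-18 1 and 3, and TP-18 2 was far above the rest. The log2 fold change, 1.55 ± 0.64 (95% interval 0.06 to 3.05, edgeR adjusted p = 0.296), was the largest of the 10 in this fit. Ankrd37 exceeded it without TP-18 2 (1.00 against 0.86), without vehicle 1 (1.23 against 1.19) and on log2(FPKM + 1) (1.37 against 1.31). The value for Egln3 was 2.5 without vehicle 2. On FPKM, which scales by library totals, the groups did not overlap, but only just, with vehicle 2 at 3.50 and TP-18 1 at 3.51 FPKM.

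Of 15 other genes that carry or sense the oxygen signal, 0 passed the edgeR test. Of their values 6 lay above 0 and 9 below, with a median log2 fold change of -0.06. At an unadjusted p under 0.05 in edgeR, 1 was higher and 0 lower, against 7.56% and 8.70% of all tested genes. Egln1, the main HIF prolyl hydroxylase, was at 78.2, 145 and 94.0 CPM under vehicle and at 117, 194 and 115 CPM under TP-18, highest in the same libraries as Egln3. Egln2, its paralog, lay between 53.1 and 59.6 CPM in all 6 libraries. Epas1, which encodes HIF-2α, was at 4.06, 12.6 and 12.8 CPM under vehicle and at 23.1, 31.4 and 7.92 CPM under TP-18, with overlap (log2 fold change 1.08 ± 0.57, edgeR adjusted p = 0.389). Hif3a was at most 1.68 CPM. The most abundant genes of this list by FPKM were Elob, a subunit of the VHL ligase (-0.28 ± 0.19), and Cited2, an inhibitor of HIF co-activation (-0.24 ± 0.14). On CPM, groups did not overlap with TP-18 below in 1 of the 15, Cited2, against 11.7% of tested genes. With TP-18 above, 1 did not overlap, against 11.6%. This was Vhl, named after its values were seen (log2 fold change 0.53 ± 0.20, edgeR adjusted p = 0.255).

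Vegfa and Adm encode secreted factors that act on vessels. Vegfa (22339, chromosome 17, 46016993 to 46032369, minus strand) was at 302, 299 and 276 CPM in vehicle 1, 2 and 3 and at 219, 357 and 284 CPM in TP-18 1, 2 and 3. TP-18 libraries lay on both sides of the vehicle libraries. The log2 fold change was -0.03 ± 0.19, with a 95% interval of -0.47 to 0.41, and 0.15 with library totals as scaling, which moved the median of all tested genes from 0.02 to 0.20.

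Adm (11535, chromosome 7, 110627661 to 110629820, plus strand), the precursor of the vasodilator adrenomedullin, averaged 5.56 FPKM against 69.4 FPKM for Vegfa. It was at 1.72, 10.8 and 4.76 CPM in vehicle 1, 2 and 3 and at 5.61, 19.7 and 3.22 CPM in TP-18 1, 2 and 3. The number 2 library was the highest of its group in both groups, and Adm had the widest within-group range of the members, 6.29-fold among vehicle and 6.11-fold among TP-18 libraries. Its counts ran from 28 to 363. The log2 fold change was 0.72 ± 0.79 (95% interval -1.12 to 2.56), but -0.39 without TP-18 2 and 1.53 without vehicle 2.

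Of 13 listed receptors and relatives of these factors, 11 were tested, 0 passed in edgeR, and their median log2 fold change was 0.34. At an unadjusted p under 0.05 in edgeR, 1 was higher and 1 lower, against 7.56% and 8.70% of all tested genes. Kdr, the main signalling receptor for VEGF, was at 9.34, 9.82 and 11.3 CPM under vehicle and at 27.9, 21.4 and 20.5 CPM under TP-18, without overlap (log2 fold change 1.19 ± 0.19, edgeR adjusted p = 0.0863). Flt1, another VEGF receptor, overlapped, at 10.1, 51.3 and 22.4 CPM under vehicle and 53.4, 92.1 and 31.2 CPM under TP-18. Log2 fold changes were 0.34 ± 0.25 for the co-receptor Nrp1, 0.31 ± 0.21 for Nrp2, 0.28 ± 0.20 for the adrenomedullin receptor Calcrl, 0.49 ± 0.67 for its partner Ramp2 and 0.10 ± 0.17 for the scavenging receptor Ackr3. Ramp3, the other partner of the adrenomedullin receptor, was named after its values were seen: it was at 2.46, 8.998 and 6.62 CPM under vehicle and 1.13, 1.68 and 1.31 CPM under TP-18, without overlap (log2 fold change -2.13 ± 0.50, edgeR adjusted p = 0.152). The 12 endothelial markers, Kdr among them, all had positive log2 fold changes and summed to 60.5 to 235 CPM under vehicle and 151 to 239 CPM under TP-18. Their part in the receptor values was not tested.

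**Figure D2:**
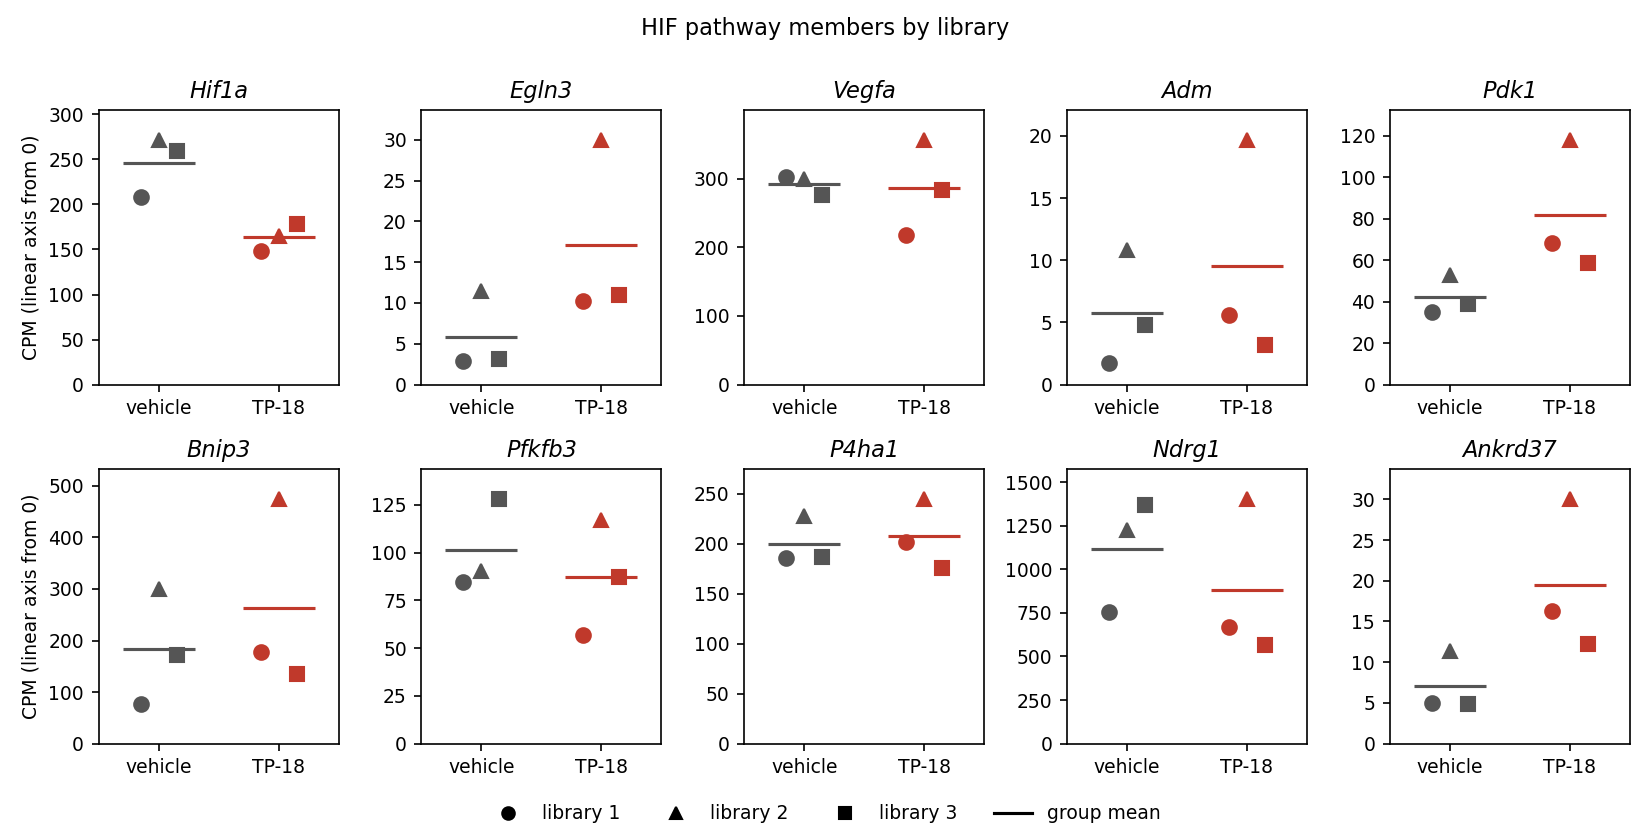
CPM of each member, with a panel per gene and linear y axes, in vehicle libraries (grey) and TP-18 libraries (red). Symbols give the library number and lines the group means, and library 2 is highest in both groups for Egln3, Adm, Pdk1, Bnip3, P4ha1 and Ankrd37.

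Pdk1 (228026, chromosome 2, 71873224 to 71903858, plus strand) encodes a kinase that inhibits pyruvate dehydrogenase and so keeps pyruvate from the citric acid cycle. It was at 34.9, 52.9 and 38.7 CPM in vehicle 1, 2 and 3 and at 68.3, 118 and 58.4 CPM in TP-18 1, 2 and 3. Every TP-18 library lay above every vehicle library. Means were 42.1 ± 9.48 and 81.6 ± 32.0 CPM (SD, n = 3 each), and the log2 fold change was 0.95 ± 0.29 (95% interval 0.29 to 1.62, edgeR adjusted p = 0.213), and 0.59 without TP-18 2. Its paralog Pdk3 was also without overlap, at 40.1, 49.2 and 45.1 CPM under vehicle and 55.7, 61.4 and 52.0 CPM under TP-18 (log2 fold change 0.33 ± 0.14, edgeR adjusted p = 0.290). Pdk2 had a log2 fold change of 0.03 ± 0.29, and Pdk4 was at most 1.13 CPM. Of 13 other genes that form or control the pyruvate dehydrogenase complex 0 passed in edgeR, with a median of -0.11. At an unadjusted p under 0.05 in edgeR, 1 was higher and 1 lower, against 7.56% and 8.70% of all tested genes. The abundant subunits Pdha1 and Dld had values of -0.14 ± 0.14 and -0.11 ± 0.12.

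Bnip3 (12176, chromosome 7, 138890836 to 138909519, minus strand) encodes a mitochondrial outer membrane protein that directs mitochondria to autophagy. It was at 77.4, 300.3 and 172 CPM in vehicle 1, 2 and 3 and at 178, 475 and 136 CPM in TP-18 1, 2 and 3. The number 2 library was again the highest of each group, and the groups overlapped. The log2 fold change was 0.52 ± 0.58 (95% interval -0.83 to 1.86), and -0.23 without TP-18 2. Its paralog Bnip3l had its highest values in the same libraries, vehicle 2 at 135 CPM and TP-18 2 at 158 CPM (log2 fold change 0.14 ± 0.27). Exons of Bnip3 share 22.3% of their bases with an antisense gene, Gm45507, so reads there cannot be assigned. Of 15 genes of mitophagy and autophagy 0 passed in edgeR, with 4 values above 0, 11 below and a median of -0.30. Against 7.56% of all tested genes higher and 8.70% lower, 0 of the 15 were higher and 5 lower at an unadjusted p under 0.05 in edgeR. The most abundant were Sqstm1, which encodes the autophagy receptor p62, at 1818, 2248 and 2231 CPM under vehicle and 1207, 937 and 1142 CPM under TP-18 (log2 fold change -0.94 ± 0.16, edgeR adjusted p = 0.0972), and Phb2 (-0.24 ± 0.13).

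Pfkfb3 (170768, chromosome 2, 11471433 to 11554077, minus strand) encodes an enzyme that makes fructose 2,6-bisphosphate, an activator of glycolysis. It was at 84.7, 90.6 and 128 CPM in vehicle 1, 2 and 3 and at 57.0, 117 and 87.2 CPM in TP-18 1, 2 and 3. The groups overlapped, with a log2 fold change of -0.22 ± 0.28 (95% interval -0.86 to 0.43). Its paralogs Pfkfb1, Pfkfb2 and Pfkfb4 had values of 0.04 ± 0.31, 0.21 ± 0.24 and -0.10 ± 0.25. Of 8 tested genes around this step 0 passed in edgeR, among them the phosphofructokinases Pfkl, at 115, 148 and 95.02 CPM under vehicle and 179, 224 and 155 CPM under TP-18 (0.64 ± 0.21, edgeR adjusted p = 0.230), and Pfkp (0.09 ± 0.17). Of 15 glycolytic enzymes 0 passed, 13 values lay above 0 and the median was 0.23. At an unadjusted p under 0.05 in edgeR, 2 of each of these lists were higher and 0 lower, with Pfkl counted in both. Among all tested genes 7.56% were higher and 8.70% lower. The abundant enzymes Tpi1 and Eno1 had values of 0.36 ± 0.23 and 0.21 ± 0.19.

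P4ha1 (18451, chromosome 10, 59323296 to 59373304, plus strand) encodes the catalytic subunit of a collagen prolyl hydroxylase. It was at 186, 228 and 187 CPM in vehicle 1, 2 and 3 and at 202, 245 and 176 CPM in TP-18 1, 2 and 3. TP-18 1, 2 and 3 spanned the vehicle libraries, with a log2 fold change of 0.05 ± 0.17 (95% interval -0.34 to 0.45). Of 10 other collagen-modifying genes 0 passed in edgeR, with a median of 0.27. At an unadjusted p under 0.05 in edgeR, 2 were higher and 0 lower, against 7.56% and 8.70% of all tested genes. P4ha2 had a value of 0.64 ± 0.34, P4ha3 was at most 2.06 CPM, and the abundant P4hb and Plod3 had values of -0.02 ± 0.21 and -0.08 ± 0.13. The sum over 12 fibroblast markers, to which Col1a2 contributed most, did not overlap between the groups, at 900.2 to 1436 CPM in vehicle and 1836 to 2241 CPM under TP-18. Singly, 8 of the 12 did not overlap, all with TP-18 above, against 11.6% of tested genes. Of the 12 log2 fold changes 11 lay above 0, Fap (-0.72 ± 0.47) being the exception. Their part in the values of the collagen-modifying genes was not tested.

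Ndrg1 (17988, chromosome 15, 66929318 to 66969640, minus strand), a stress-responsive gene widely used as a hypoxia marker, was the most abundant member, at 343 FPKM on average. It was at 753, 1225 and 1369 CPM in vehicle 1, 2 and 3 and at 669, 1404 and 568 CPM in TP-18 1, 2 and 3. TP-18 2 was the highest library and TP-18 3 the lowest, so the groups overlapped fully. The log2 fold change was -0.34 ± 0.37 (95% interval -1.20 to 0.52), and -0.85 without TP-18 2. Of its relatives, Ndrg3 lay between 40.5 and 50.8 CPM, and Ndrg2 and Ndrg4 were at most 3.67 and 1.62 CPM. Exons of Ndrg1 share 6.35% of their bases with Gm17035 and 2.08% with Gm2895, both on the other strand, so reads there cannot be assigned.

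Ankrd37 (654824, chromosome 8, 45996902 to 46005707, minus strand) encodes a small ankyrin repeat protein known as a HIF target. It was at 5.04, 11.4 and 4.90 CPM in vehicle 1, 2 and 3 and at 16.3, 30.1 and 12.2 CPM in TP-18 1, 2 and 3. Vehicle 2 came close to TP-18 3 but stayed below it, so the groups did not overlap. Means were 7.11 ± 3.71 and 19.5 ± 9.36 CPM (SD, n = 3 each), a 2.74-fold difference (95% interval 1.34 to 5.61) and a log2 fold change of 1.46 ± 0.44 (edgeR adjusted p = 0.218). It ranged from 1.00 without TP-18 2 to 1.96 without vehicle 2. Exons of Ankrd37 share 22.7% of their bases with Lrp2bp, which has a total count of 27, and 3.70% with Ufsp2, which has 3577. Both lie on the other strand, so reads in the shared bases cannot be assigned.

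**Figure D3:**
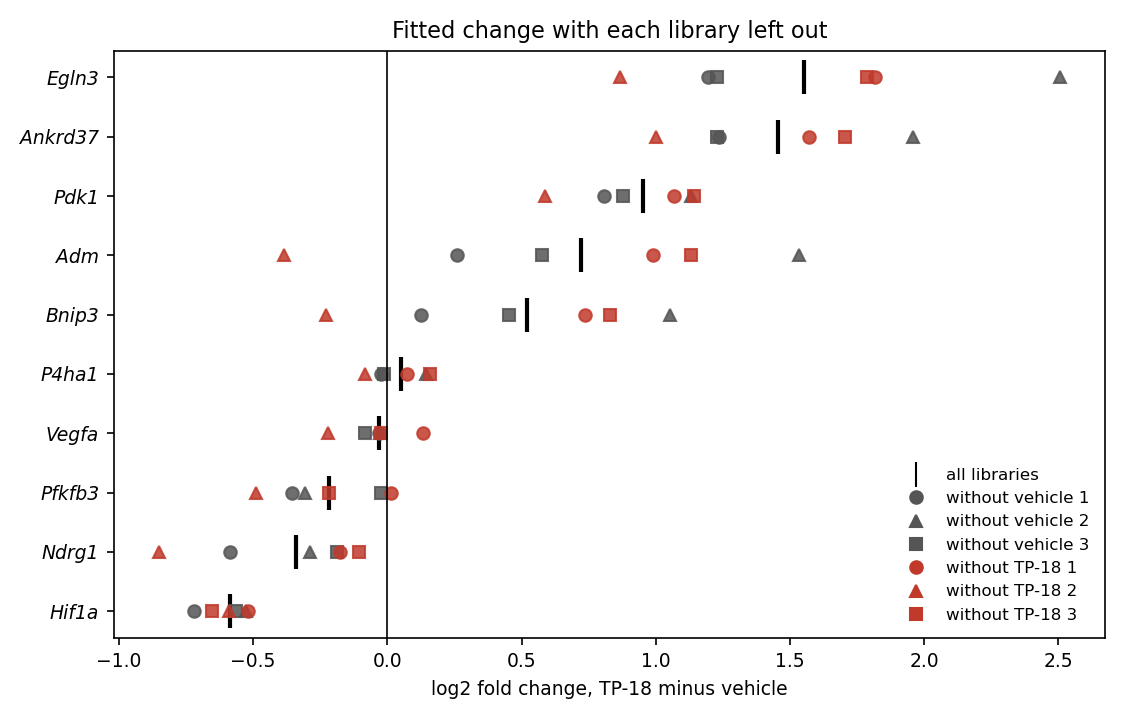
Log2 fold change of each member with all 6 libraries (black bars) and with each library left out in turn (coloured symbols). Egln3, Ankrd37, Pdk1, Hif1a and Ndrg1 stay on their side of 0, whereas Adm and Bnip3 lie below 0 without TP-18 2.

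Of 40 further HIF targets 39 were tested, 0 passed in edgeR, and 26 values lay above 0 and 13 below, with a median log2 fold change of 0.30. Against 7.56% of all tested genes higher and 8.70% lower, 7 of the 39 were higher and 2 lower at an unadjusted p under 0.05 in edgeR. The most abundant were Arg1, the arginase of macrophages, at 262, 960.1 and 808 CPM under vehicle and 406, 962 and 365 CPM under TP-18, and the cytokine gene Mif (-0.03 ± 0.26). Arg1 was highest in the number 2 library of each group, as many members were, and its groups overlapped.

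Several members differed widely between libraries of the same group. TP-18 2 was the highest TP-18 library in 9 of 10 members, against 38.9% of tested genes, and the highest of all in 8 of 10, against 17.7%. Vehicle 2 was the highest vehicle library in 7 of 10, against 33.4%, and both were highest in 6 of 10, against 14.5%. Averaged over members, log2 CPM relative to each gene's mean came to -0.67, 0.30 and -0.22 for vehicle 1, 2 and 3 and to -0.10, 0.87 and -0.19 for TP-18 1, 2 and 3. Vehicle 2 thus lay above TP-18 1 and 3. Bnip3 varied 3.88-fold within vehicle and 3.50-fold within TP-18, and Egln3 4.07-fold and 2.93-fold, where the median over tested genes was 1.43-fold and 1.31-fold. Hif1a varied 1.31-fold and 1.20-fold.

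**Figure D4:**
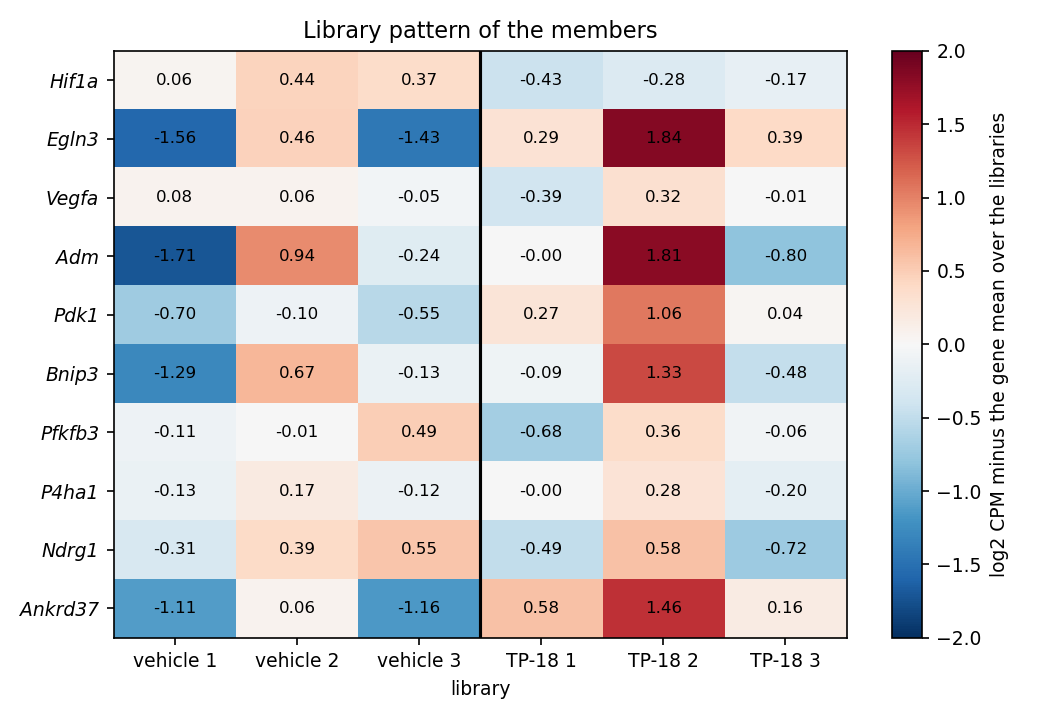
Log2 CPM minus the gene's mean over the 6 libraries, for members (rows) in each library (columns). TP-18 2 lies above the gene mean in 9 of 10 members and vehicle 2 in 8 of 10, and Hif1a is the member whose groups separate in the lower direction.

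Summed markers of some cell types also differed between the number 2 libraries and the others. The sum of 12 macrophage markers was lowest in the number 2 library of each group, at 5709 CPM in a vehicle range up to 9577 and at 5304 CPM in a TP-18 range up to 7804. Singly, 9 of the 12 were lowest in vehicle 2 and 7 of 12 in TP-18 2, among them the complement genes C1qa and C1qb, while Cd14 and Fcgr1 were highest in vehicle 2 and Mrc1 and Mertk in TP-18 2. The sum of the 11 neutrophil markers in the table was highest there, at 306 CPM in a vehicle range from 77.8 and at 216 CPM in a TP-18 range from 92.8. Singly, 8 of the 11 were highest in vehicle 2 and 6 of 11 in TP-18 2, among them S100a8 and Lcn2, while Csf3r, the receptor of the neutrophil growth factor, was lowest in both. T and NK cell markers summed lowest there, in ranges of 13.4 to 33.8 and 9.71 to 26.3 CPM. Of 12 endothelial markers, 10 were highest in vehicle 2 and 6 in TP-18 2. Their sum was highest in vehicle 2 among vehicle libraries (235 CPM), but in TP-18 1 among TP-18 libraries (239 CPM). Carcinoma and epithelial markers summed highest in both number 2 libraries, at 544 and 526 CPM. Muscle and skin markers summed highest in vehicle 2 (190 CPM) and in TP-18 1 (115 CPM). Among all tested genes, vehicle 2 was the highest vehicle library in 33.4% and TP-18 2 the highest TP-18 library in 38.9%. The shares of tested genes lowest in these libraries were not computed. No listed marker in the tables was at 0 in all libraries. The part of these cells in the members' values was not tested. With both number 2 libraries left out, log2 fold changes were 1.83 for Egln3, 1.52 for Ankrd37, 0.78 for Pdk1 and -0.51 for Hif1a, and 0 members passed in edgeR.

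Genes were ranked by how closely their log2 CPM followed the members' mean over the 6 libraries, among 9179 genes with a mean of at least 10 CPM. The closest were Dtnb (Pearson r = 0.99), Mkrn2, D230025D16Rik, Nek4 and Egln1 (r = 0.98 each), then Appl2, Met, Fzd3, Rcor2 and Edem2. On deviations from the group means the closest were Vps35, Clk1, Cnot7, Whamm and Stam, then Dtnb, Slc25a51, Tma16, Trmt10c and Hdhd5. Since the points are 6 libraries that share depth and cell mixture with the members, these values are a description. Among the members, Bnip3 and Adm followed the mean of the other 9 most closely (r = 0.97 and 0.96), while Hif1a had r = -0.23. On deviations from the group means the values were 0.98 for Bnip3, 0.97 for Adm and 0.48 for Hif1a.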

How the data were processed

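Counts per gene, as the authors deposited them for 17191 genes in 6 libraries, were used for tests, and FPKM values that the authors deposited in a second table were used for levels between genes. The tools named, per the submitters' processing notes, are HTSeq, HISAT2 and fastp, with the GRCm38 build. Versions, settings and strand use are not given in the sources used here. FPKM equalled count over library total and gene length on the 16135 genes checked. The test was run in edgeR 4.0.16 under R 4.3.3 (filterByExpr, minimum count 10 and minimum total 15; TMM scaling; quasi-likelihood test of TP-18 against vehicle, no covariates; Benjamini-Hochberg adjustment over 12721 genes, threshold 0.05), after a test on simulated data. Total counts ran from 16371128 to 17597645 per library, and standard errors of the members' log2 fold changes were widest for Adm, Egln3 and Bnip3. Positions are from GENCODE M21 on GRCm38.

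Alternatives were other scalings, DESeq2 1.42.0, limma 3.58.1 (voom, and log2(FPKM + 1) or log2(FPKM + 0.1)), other filters, a replicate block and each library left out. Leaving out both libraries numbered 2 was chosen after seeing the data. The members and gene lists were chosen with earlier results of these data known. Named were all members, their paralogs, 5 receptors, list members past the threshold or otherwise the 2 most abundant by FPKM, and the 10 genes closest to the members' pattern by each of 2 measures. Further markers named were chosen after their values were seen. Figures were drawn with matplotlib 3.10.9.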

Additional observations from a re-analysis of the deposited data

How the results depend on the processing

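The number of genes called, 14 in the edgeR test, was 4 with library totals, 566 with DESeq2, 2 with log2(FPKM + 1), 2 with log2(FPKM + 0.1), 27 with no filter, 3 with the replicate block and 0 with both libraries numbered 2 left out, and ranged from 0 to 8 with single libraries left out. The number of members called was 0 except with DESeq2, which called 3. The members' median ranged from -0.22 (without TP-18 2) to 0.60 (without vehicle 2). Log2 fold changes that changed sign were those of Vegfa, 0.15 with library totals and 0.12 with both FPKM fits, and, with single libraries left out, of Vegfa (-0.22 to 0.13), Adm (-0.39 to 1.53), Bnip3 (-0.23 to 1.05), P4ha1 (-0.084 to 0.16) and Pfkfb3 (-0.49 to 0.015). The cause was not tested. Hif1a, Egln3, Ankrd37, Pdk1 and Ndrg1 kept their direction under the alternatives run. Same-numbered libraries had deviations correlated at 0.16, 0.39 and -0.15, and differently numbered ones between -0.59 and 0.50. Deviations from means of 3 libraries cannot decide whether the numbers pair the samples. With the replicate block 0 members passed in edgeR and their median was 0.28. Standard errors fell from 0.64 to 0.23 for Egln3, from 0.44 to 0.21 for Ankrd37 and from 0.29 to 0.17 for Pdk1. Their edgeR adjusted p-values with the block were 0.0969, 0.106 and 0.127. That of Hif1a was 0.199, with a standard error of 0.15 in both fits. In the fit without a block, with 3 libraries a group, wide intervals limit Adm, Egln3 and Bnip3 most.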
